A study of Macaca fascicularis with 132 samples.

Results

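Culturing blood mononuclear cells can raise the RNA of many genes even when nothing is added. The 31 genes described here were higher after 24 h of control culture than at 0 h and stayed well below the control level when heterodimeric IL-15 was present. They were chosen by a rule on measured values in the cynomolgus count table, which has 38550 rows, 31327 of them with at least 1 count. Counts of the 3 libraries of each animal and group were summed, scaled to a common library total as CPM, taken as log2(CPM + 1) and averaged over the 4 animals. A gene had to reach a mean of 5 CPM in at least 1 control group, which 10811 genes did. Its control level at 24 h had to be at least 1 log2 unit above 0 h, which left 1477 culture induced genes. Its IL-15 minus control difference, called the IL-15 effect below, had to be above -0.3 at 2 h and -1 or lower at 12, 24 and 48 h. The 31 members are 2.10% of the culture induced genes.

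The libraries came from peripheral blood mononuclear cells (PBMCs) of 4 cynomolgus macaques (Macaca fascicularis), the females 38142 and 38155 and the males 38147 and 38157, with no genotype, strain or age used here. The design text speaks of 6 animals, and any others are not analysed here. Control cultures, at a dose of 0 ng/ml, were collected at 0, 2, 6, 12, 24 and 48 h. Treated ones received IL-15/IL-15Ra at 40 ng/ml and were collected after 2, 6, 12, 24 and 48 h. Each of these 11 groups holds 12 libraries, 3 per animal. All cells were treated outside the body, and there is no IL-15 group at 0 h.

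IL-15 is presented to cells by the alpha chain of its own receptor, and the heterodimer joins both in a soluble form. It signals through a beta chain shared with IL-2 and the common gamma chain, which activate JAK1, JAK3 and the transcription factor STAT5, and it is known for sustaining natural killer cells and memory CD8+ T cells. PBMCs also hold B cells, monocytes and dendritic cells, and monocytes are known to attach to plastic and to change their expression when they are cultured. The gene IDs of the table could be paired with no symbol here, so the members are given without names or roles, their sequences are not printed, and the labelled cell type was not checked against marker genes. In bulk RNA, fewer cells of a type and less RNA per cell cannot be told apart. The part of such shifts in the results below was not tested.

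Depth was 16423972 to 87944372 counts per library (median 27185130) and 54376963 to 126025607 per sum. Counts of PCR-amplified reads are not independent molecules. The 3 libraries of an animal and group differed by more than sampling noise in every pair. Whether they are separate cultures is not said in the labels, so each n given with a mean counts animals. Fits with libraries entered singly are given only as alternatives. They take the libraries of an animal and group as independent, which the labels do not show. By their distance to the nearest sister library, 3 libraries stood apart, namely number 1 of animal 38142 in control at 48 h, number 2 of animal 38147 in IL-15 at 24 h and number 3 of animal 38157 in control at 2 h. Without them the rule gave 31 genes, 30 of them shared. The median IL-15 effect over the members was then -1.46 at 48 h, against -1.51 with all libraries, and did not differ at 24 h (-1.70 in both).

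The threshold on the late effect cut through a continuous range. The largest of a gene's 3 late effects was -1.007, -1.008 and -1.013 in the 3 members nearest the limit, and -0.995, -0.973 and -0.949 in the 3 genes just outside. The nearest control differences at 24 h were 1.004 inside and 0.973 outside, and the nearest 2 h effects were -0.232 inside and -0.357 outside. At 24 h the median gene of the 10811 lay 0.33 above 0 h in control culture by plain CPM and 0.02 above it after TMM scaling, which corrects for the make-up of each library. TMM scaling also moved the median IL-15 effect of these genes by 0.18 at 12 h, 0.17 at 24 h and 0.11 at 48 h. With TMM-scaled values each of the 31 members was still lower with IL-15 at 12, 24 and 48 h, by at least 0.83. However, 15 of them met every limit of the rule, since 20 kept a control difference of 1 or more at 24 h and 22 kept an effect of -1 or lower at 12 h.

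The values that chose the members follow as a description without a test. In control culture the members had a median difference from 0 h of -0.20, 0.79, 1.40, 1.56 and 1.35 at 2, 6, 12, 24 and 48 h, on the log2(CPM + 1) scale. At 2 h, 20 of 31 members lay below their 0 h level, and so did 54.5% of the 10811 genes, whose median was -0.08. The other 1446 culture induced genes were already 0.47 above 0 h at that hour in the median. The level first stood 1 log2 unit above 0 h at 6 h in 11 members, at 12 h in 13 and at 24 h in 7. The highest control mean was that of 48 h in 14 members, of 24 h in 10, of 12 h in 4 and of 6 h in 3, so the list mixes early, passing and still climbing courses.

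With IL-15 the median over the members stayed near the starting level, while single members did not. The median difference from the 0 h control was -0.29, 0.29, 0.09, 0.04 and 0.09 at the same hours. At 24 h, 25 of 31 lay within 1 log2 unit of 0 h, 4 lay at least 1 above and 2 at least 1 below. By 48 h, 8 lay at least 1 above and 1 at least 1 below, with a range of -2.56 to 3.65. The other culture induced genes stood 1.15 above 0 h with IL-15 at 24 h, close to the 1.30 they showed in control. These differences share the 0 h sums. Each difference with IL-15 is also the control difference plus the IL-15 effect, and the rule limited both at 24 h. The nearness to 0 h and the gap to the other culture induced genes thus follow in part from how the members were chosen.

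**Figure D1:**
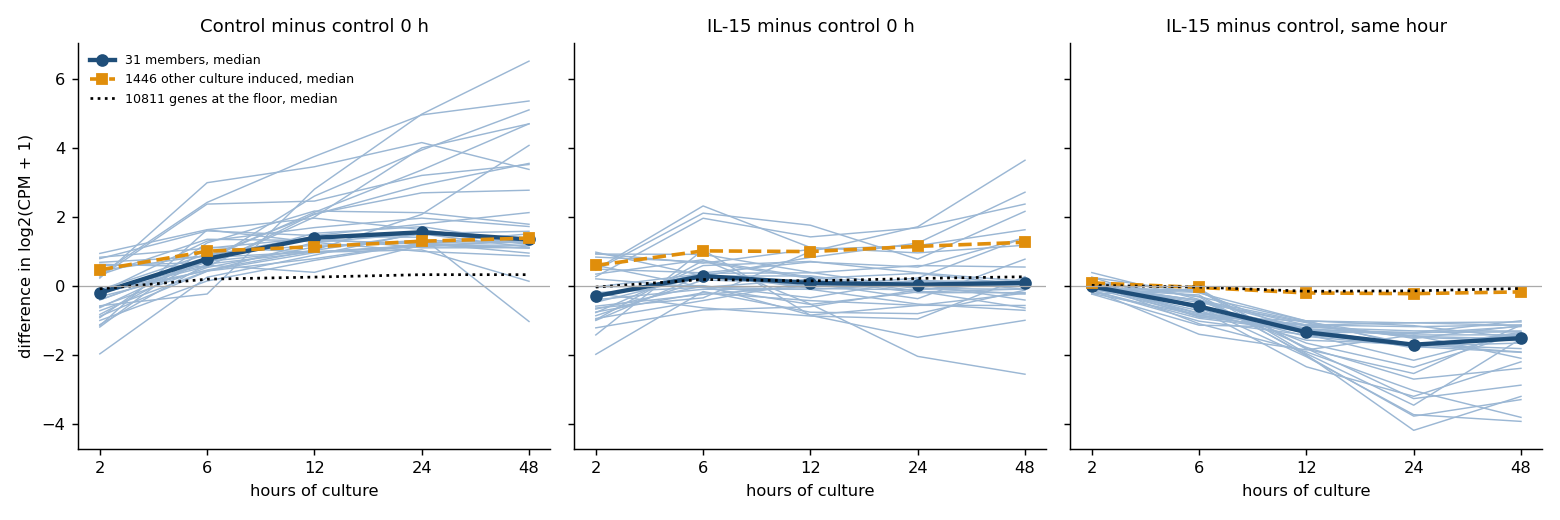
Difference in log2(CPM + 1), mean of 4 animals, against hours of culture (hours evenly spaced, not to scale) for control minus 0 h, IL-15 minus 0 h, and IL-15 minus control. Thin lines are the 31 members, and the thick lines are medians. The members reach a median of 1.56 in control at 24 h and 0.04 with IL-15, and the 1446 other culture induced genes have medians of 1.30 and 1.15.

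The IL-15 effect over the members had a median of -0.01 at 2 h (range -0.23 to 0.39) and -0.59 at 6 h (-1.40 to -0.08). By 12 h the median was -1.34 (-2.34 to -1.01), by 24 h it was -1.70 (-4.18 to -1.06), and after 48 h it stood at -1.51 (-3.92 to -1.01). The medians of all 10811 genes at these times were 0.02, -0.03, -0.15, -0.14 and -0.07. The effect was deepest at 24 h in 18 members, at 48 h in 11 and at 12 h in 2. From 24 to 48 h it shrank by more than 0.5 in 6 members, deepened by more than 0.5 in 2 and moved by 0.5 or less in 23.

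The 2 members with the highest control difference at 24 h, and the 2 of the remaining ones with the lowest mean late effect, are given by ID. ENSMFAG00000000151 was low at 0 h, with 0.506, 2.11, 1.29 and 0.572 CPM in animals 38142, 38147, 38155 and 38157. In control culture at 24 h the same animals had 89, 174, 32.2 and 31.3 CPM, a mean of 81.7 ± 67.4 (SD, n = 4). With IL-15 at 24 h they had 4.69, 27, 0.731 and 6.18 CPM. The groups did not overlap at 24 h, and animal 38147 was the highest in both. The gene went on climbing in both arms to 48 h, with 313, 462, 64.2 and 125.9 CPM in control against 24.1, 78.5, 4.58 and 36.4 with IL-15, where the groups overlapped. With IL-15 it was still well above its start, 3.65 above 0 h at 48 h against 6.52 in control on the log2(CPM + 1) scale. At 6 h it had not yet risen above its 0 h range in either arm, at 0.762 ± 0.438 CPM in control and 0.623 ± 0.348 with IL-15 (SD, n = 4).

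ENSMFAG00000045138 was already higher in control at 6 h. Its 0 h levels were 9.44, 17.4, 7.82 and 14.6 CPM in animals 38142, 38147, 38155 and 38157, and its control levels at 6 h were 74.7, 62.5, 22.6 and 193. The IL-15 cultures followed to 59.3, 59, 23.3 and 104.5 CPM at 6 h, so the arms overlapped. They parted afterwards, with 530.0, 758, 127.5 and 483 CPM in control at 24 h and 20.7, 85.1, 0.963 and 61.6 with IL-15. The ratio of the means was 11.3 at 24 h. With IL-15 its mean was 61.5 CPM at 6 h and then, in order of time, 59, 42.1 and 93.7, while the control mean was 662 ± 413 CPM at 48 h (SD, n = 4). In animal 38155 the IL-15 level at 24 h was below that animal's own 0 h level.

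ENSMFAG00000044200 had the lowest mean late effect of all members. Its levels at 0 h were 15.1, 7.98, 3.47 and 41.1 CPM in the 4 animals in the same order. In control at 24 h they were 165, 233, 47.7 and 161 CPM, and with IL-15 they were 9.66, 33, 0.280 and 20.3. At 48 h control sums held 510.1, 644, 94.8 and 397 CPM, and IL-15 sums held 16.8, 110.1, 0.952 and 60.3. The arms did not overlap at 24 h and overlapped at 48 h, where animal 38147 with IL-15 exceeded animal 38155 in control. Within each animal the effect at 48 h was -4.84, -2.54, -5.62 and -2.70.

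ENSMFAG00000043061 had control levels of 2.80, 2.28, 1.29 and 4.14 CPM at 0 h and 112.3, 138, 24.1 and 23.6 CPM at 24 h. With IL-15 it had 3.94, 14.7, 0.183 and 2.06 CPM at 24 h, a ratio of the means of 14.3. At 48 h the control sums were 169, 218, 34.7 and 49.7 CPM and the IL-15 sums 5.80, 57.8, 0.952 and 8.39. In all 4 genes animal 38147 kept the highest level and animal 38155 the lowest level with IL-15 at both 24 and 48 h.

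Some of these values rest on the libraries that stood apart. Without library 1 of animal 38142 in control at 48 h, that animal's level was 263 CPM in place of 313 for ENSMFAG00000000151, 775 in place of 644 for ENSMFAG00000045138, 382 in place of 510.1 for ENSMFAG00000044200 and 167 in place of 169 for ENSMFAG00000043061. Without library 2 of animal 38147 in IL-15 at 24 h, the level of ENSMFAG00000045138 there was 103.6 CPM in place of 85.1. The other 3 genes were at 29.3, 30.8 and 15.2 CPM in place of 27, 33 and 14.7. The arms were apart at 24 h with and without that library.

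**Figure D2:**
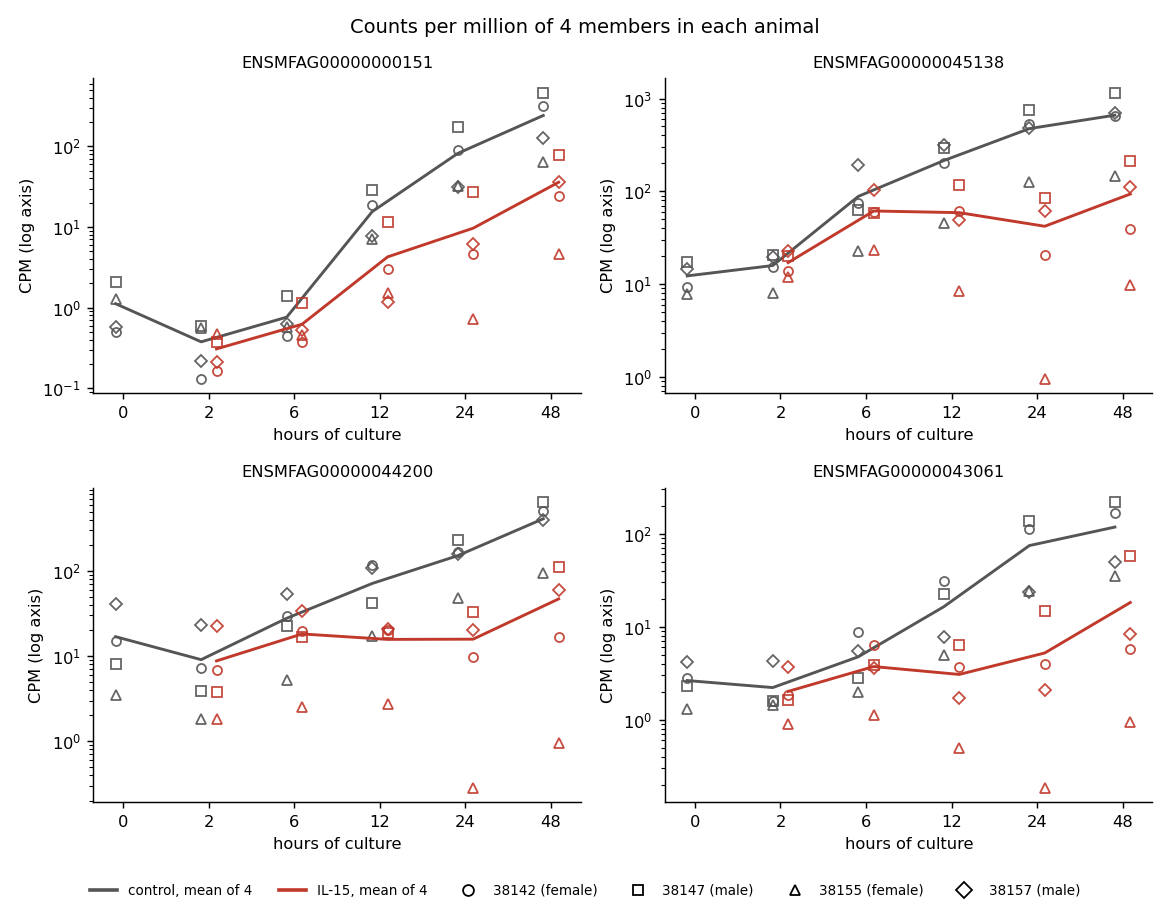
CPM on a log axis against hours of culture (evenly spaced, not to scale) for 4 members. Symbols are the 4 animals, lines are the means, grey is control and red is IL-15. At 24 h every IL-15 sum of a gene lies below every control sum, and at 48 h the arms overlap, with animal 38155 lowest and 38147 highest with IL-15.

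The members span a wide range of levels. Their median was 5.32 CPM at 0 h, and 15 of 31 had a mean under 5 CPM there. It was 25.8 CPM in control at 24 h and 6.21 with IL-15. At the low end, 1 member had no count at 0 h in any library, which allows up to 0.00986 CPM (3 counts of 304240288 over the group, counting error only). In control at 24 h it had 9.0, 9.59, 2.08 and 4.51 CPM in animals 38142, 38147, 38155 and 38157, so its pooled level of 6.52 CPM was at least 661-fold higher than at 0 h. With IL-15 at 24 h it had 0.445, 0.740, 0.0488 and 0.745 CPM.

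The most abundant member was far higher in 1 animal than in the others. In control at 24 h it had 2258, 2287, 403 and 11759 CPM in animals 38142, 38147, 38155 and 38157. With IL-15 at 24 h the same animals had 108.9, 904, 4.50 and 3107 CPM. It was lower with IL-15 in each animal, but animal 38157 with IL-15 exceeded the other three in control. Its control mean passed through a maximum of 4335 CPM at 12 h and was 845 ± 1154 CPM at 48 h (SD, n = 4), below the 1026 ± 775 CPM of 0 h.

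The second most abundant member behaved evenly across animals. It had 357, 294, 801 and 555 CPM at 0 h, 813, 789.7, 1577 and 1068 CPM in control at 24 h, and 332, 237, 397 and 316 CPM with IL-15 at 24 h. Here animal 38155, which had the lowest IL-15 levels of the 4 genes above at 24 h, was the highest in both arms at 24 h. The arms did not overlap. At 48 h the means were 1202 ± 216 CPM in control and 318 ± 56.8 with IL-15 (SD, n = 4).

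The 6 h samples entered none of the differences on which the members were chosen, so the IL-15 effect at 6 h was tested. They still lie between the 2 h and 12 h samples of the same animals, and across the 1446 other culture induced genes the effects at 6 and 12 h were alike (Pearson r 0.86, across genes, which are not independent). Across the 31 members, whose range at 12 h the rule limits, the same Pearson r was -0.13. All 31 members passed the filter on low counts, and 0 reached 5 CPM through the 6 h control group alone. With edgeR's quasi-likelihood test and Benjamini-Hochberg adjustment over 18197 genes, 15 of 31 members (48.4%) were lower with IL-15 at 6 h, against 3.54% of all genes tested. No member was called higher (0 of 31, and 0 at an unadjusted p under 0.05 with edgeR and with DESeq2), against 5.12% of all genes. The fitted log2 fold change was below 0 in 31 of 31 members and in 51.2% of all genes. Its median was -0.74 over the members and -0.01 over all genes. The main fit took all 44 sums, with a term for the animal and a spread per gene shared by all times. Apart from that term it takes an animal's sums at different times as independent. Its p and SE therefore do not measure the spread of the 6 h effect between animals. With only the 8 sums of 6 h in the fit, 23 members were called lower, against 14.3% of all genes.

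The clearest member at 6 h, chosen after its values were seen and given without its ID, was lower by a fitted log2 fold change of -1.65. Its standard error was 0.14 and its edgeR adjusted p 4.8e-11, both from the main fit over all times. At 0 h it had 3.16, 2.11, 4.34 and 2.90 CPM in animals 38142, 38147, 38155 and 38157. In control at 6 h it had 9.69, 6.71, 12.8 and 9.20 CPM, and with IL-15 it had 3.22, 2.33, 3.87 and 2.50. Each IL-15 sum was thus below each control sum and near the same animal's 0 h level. Control means then stayed between 8.84 and 9.43 CPM from 12 to 48 h, and IL-15 means between 1.86 and 2.89.

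Calls at 6 h were counted separately for the members that were deepest late. Of the 10 members with the lowest mean late effect (-1.79 or lower), 1 was called lower at 6 h, against 14 of the other 21. The median standard error of the 6 h fold change was 0.51 in the first and 0.20 in the others, and the median fold change was -0.45 against -0.75. In the main fit a gene's spread is taken over all times, including the late sums by which these members were split. Spread between animals in the late sums thus enters the standard error at 6 h. The counts of calls alone do not show a weaker response at 6 h, and the difference between these counts was not tested. None of the 4 genes given by ID passed the test. ENSMFAG00000000151 had a fitted value of -0.29 ± 0.69 (log2 fold change and SE, edgeR adjusted p = 0.88) and ENSMFAG00000045138 -0.35 ± 0.51 (edgeR adjusted p = 0.79). ENSMFAG00000044200 had -0.65 ± 0.60 (edgeR adjusted p = 0.63) and ENSMFAG00000043061 -0.44 ± 0.68 (edgeR adjusted p = 0.80). For ENSMFAG00000044200 the 6 h effects within the 4 animals were -0.57, -0.41, -0.83 and -0.65 on the log2(CPM + 1) scale, and the fit on the 8 sums of 6 h alone gave an adjusted p of 4.5e-04 (edgeR), where the other alternatives gave up to 0.81.

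**Figure D3:**
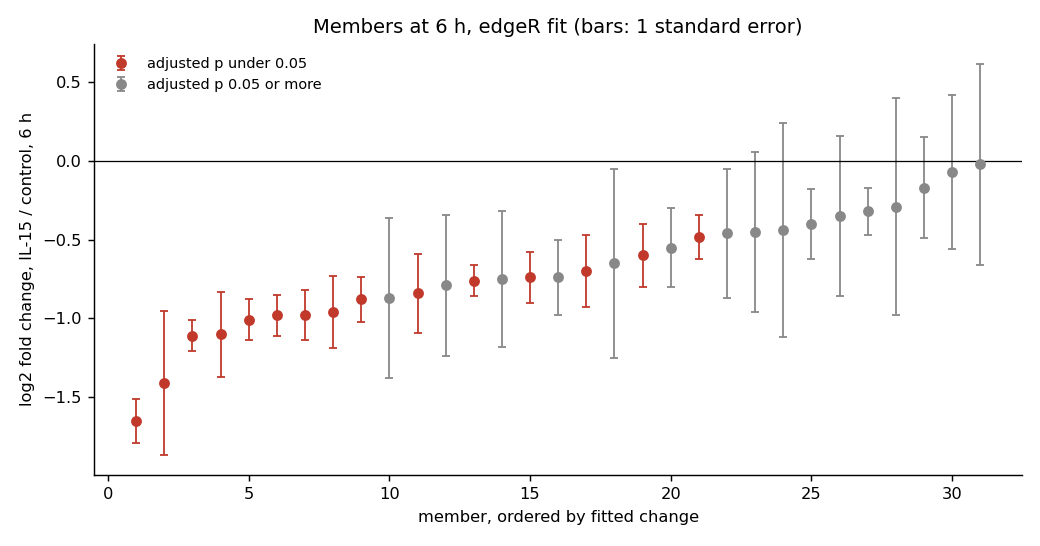
Fitted log2 fold change, IL-15 over control at 6 h, for the 31 members in ascending order, with bars of 1 standard error. The errors come from the main fit over all times and do not measure the spread of the 6 h effect between animals. Red members (15) have an edgeR adjusted p under 0.05, and all 31 values lie below 0, from -1.65 to -0.02.

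Animals were alike in direction at 6 h. At that time the IL-15 sum was below the control sum in 4 of 4 animals for 24 members, in 3 for 6 and in fewer for 1, on log2(CPM + 1), while 30.4% of the 10811 genes were lower in 4 of 4. The median effect over members was -0.57 in 38142, -0.29 in 38147, -0.77 in 38155 and -0.67 in 38157. In 8 members each IL-15 sum lay below each control sum, as in 2.29% of all genes tested. Without animal 38147 this held for 15 members, against 9.63% of all genes. The column names carry tokens of unknown meaning that divide the libraries into sets, and 1 set held 6 control libraries and 0 IL-15 libraries at 6 h. Within the 4 sets that held both, the members below 0 at 6 h were 29, 30, 21 and 30 of 31, where 21 came from 1 library of each arm from different animals. The genes at the floor were below 0 in 57.3%, 61.7%, 48.6% and 65.1%. The sets that gave 29, 30 and 30 held 1 or 2 control libraries and had 1 animal in both arms, so the animals differed between arms there too. With the set as a term and libraries entered singly, 19 members were called lower, against 11.3% of all genes.

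At 12, 24 and 48 h every member was lower with IL-15 in each of the 4 animals, against 44.9%, 38.7% and 36.3% of the 10811 genes. These are the differences that chose the members, and nothing is read from that count. The size varied between animals. An effect of -1 or lower at all 3 times was met in 4 animals by 13 members, in 3 animals by 5, in 2 animals by 7 and in 1 animal by 6. The standard deviation between animals of a member's effect at 24 h had a median of 0.44 and ranged from 0.13 to 2.25.

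The rule used the mean of the animals and not the difference between them, but it used the same late sums. Members were chosen for large effects, so the shares of all genes beside the counts below are no independent yardstick. Averaged over 12, 24 and 48 h, on log2 CPM with TMM scaling and a prior count of 2, the effect was lower in females than in males in 27 of 31 members, against 50.8% of all genes. The medians over members of the sexes' means were -1.81 in females and -1.41 in males. In 17 members both females lay below both males, against 19.8% of all genes, and in 1 both lay above, against 19.3%. By limma with Benjamini-Hochberg adjustment over 18197 genes, 0 members were called (0% of all genes called), with 12 members and 7.30% of all genes at an unadjusted p under 0.05, and a smallest adjusted p of 0.23. With edgeR's interaction of sex and treatment, 1 member was called (0.0879% of all genes), with 14 at an unadjusted p under 0.05. That fit takes an animal's sums at different times as independent, so its p does not measure the spread of the effect between animals. With 2 animals against 2, an exact permutation test cannot go below a p of 1 in 3, and sex cannot be told apart from any other difference between these pairs of animals.

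Among the genes given by ID the gap between the sexes was wide, but these genes were picked by values from the same late samples. In the order below, female 38155 had 0.280, 0.183, 0.731 and 0.963 CPM with IL-15 at 24 h, near the floor. Female 38142 had 9.66, 3.94, 4.69 and 20.7. ENSMFAG00000044200 had a mean effect of -4.50 in females and -2.30 in males (limma adjusted p = 0.55), and ENSMFAG00000043061 had -4.49 and -2.39 (limma adjusted p = 0.27). ENSMFAG00000000151 had -3.48 and -2.10 (limma adjusted p = 0.23), and ENSMFAG00000045138 had -3.77 and -2.40 (limma adjusted p = 0.53). In each of the 4 both females lay below both males, and none passed the test. At 6 h, 20 of 31 members were lower in females, against 48.8% of all genes, with a median female minus male difference of -0.12 and 0 members at an unadjusted p under 0.05 (limma).

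**Figure D4:**
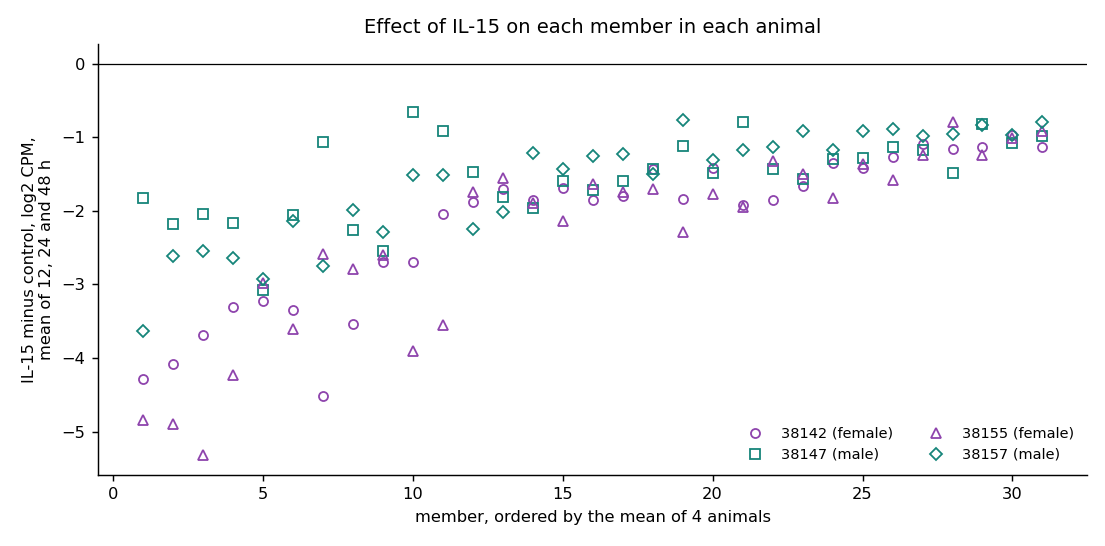
IL-15 minus control in log2 CPM, averaged over 12, 24 and 48 h, for each of the 31 members (ordered by the mean of 4 animals) and each animal. Purple symbols are females and green symbols males; every value lies below 0, and in 17 members both females lie below both males (19.8% of all genes).

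The rhesus macaque table of the same libraries gave a like list. The rule kept 31 genes in it. Of the 31 cynomolgus members, 23 had a rhesus gene whose profile over all libraries correlated at 0.99 or more. Of these matches, 22 were kept by the rule there and 14 had a count total within 10%. The lowest best correlation of a member was 0.828. Such a match of profiles is no proof of orthology, since no table used here links the IDs of both species.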

How the data were processed

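The authors deposited 2 tables of raw counts per gene, with cynomolgus and with rhesus gene IDs, for the same libraries. Messenger RNA libraries were prepared after a column extraction, per the labels' protocols. Which aligner, counter, build and annotation were used is not given in the sources used here. Members and gene lists were chosen with earlier results of these data known. The gene lists and marker lists need symbols, 0 IDs could be matched to one, and so no list could be run. IDs printed are the 2 members with the highest control difference at 24 h and, of the rest, the 2 with the lowest mean effect over 12, 24 and 48 h.

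The 3 libraries of an animal and group were summed (44 sums). edgeR 4.0.16 in R 4.3.3 used TMM, filterByExpr (18197 genes), robust quasi-likelihood and an animal term in 1 fit. limma 3.58.1, with trend and robust options, compared the sexes on log2 CPM. DESeq2 1.42.0 was an alternative. An adjusted p under 0.05 was called. The edgeR test at 6 h and limma's comparison of the sexes were checked on simulated counts drawn without differences between animals. The other fits were not checked in this way. The same animal appears in every group by label, and its control and IL-15 deviations at 6 h correlated at 0.88, 0.88, 0.83 and 0.92 across genes. A library stood apart beyond the median plus 5 scaled median absolute deviations of the distance to its nearest sister.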

Additional observations from a re-analysis of the deposited data

Results flagged for a closer look

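Of 49 groups of 4 animals examined (levels of the 4 genes given by ID in 11 groups, and the members' median effect at 5 times), 2 held an animal far from the other three, and chance alone marks about 1 in 20 such groups. ENSMFAG00000044200 with IL-15 at 12 h was at 2.73 CPM in animal 38155, against 18.8 to 21 in the others. ENSMFAG00000043061 in control at 2 h was at 4.28 CPM in animal 38157, against 1.42 to 1.57 in the others, and at 3.82 CPM without the library of that animal which stood apart.

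By edgeR's interaction test, the IL-15 effect over 12, 24 and 48 h was called different between females and males in 1 member. The edgeR adjusted p was 0.026 (female minus male -0.97 ± 0.19, SE). That test takes an animal's sums at 12, 24 and 48 h as independent, so its p and SE do not measure the spread between animals. By limma the same member had a difference of -0.94 and an adjusted p of 0.46. Its effects were -1.92 and -1.95 in the females and -0.80 and -1.18 in the males. The cause was not tested.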

How the results depend on the processing

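The count of 15 members lower at 6 h was 10 to 14 without 1 animal (1.62% to 2.85% of all genes) and 10 to 19 under all alternatives but the fit on the 8 sums of 6 h, which gave 23 (14.3%). With libraries entered singly it was 19 (11.7%), also with animal and library number as replicate block (11.8%). Pairing each animal's 2 sums at 1 time as a block gave 15 (7.02%). Members called higher stayed at 0 throughout (0 without 1 animal), and the median fold change ranged from -0.81 to -0.67, also without 1 animal. Without the libraries that stood apart, chosen as an alternative after seeing the data, as was the term for the token set, 14 were called lower (3.68%).

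The number of members depended on scaling and pseudocount. It was 15 with TMM-scaled CPM (15 shared), 13 with log2(CPM + 5) (12 shared), 39 with log2(CPM + 0.5) (30 shared), and 28 to 36 without 1 animal. Members whose sums at 6 h did not overlap numbered 8 (2.29% of all genes), 9 to 15 without 1 animal (4.30% to 9.63%), and 3 with all 12 libraries of an arm set against the other 12 (0.275%). The count for the sexes was 0 by limma and 1 by edgeR. Direction reversed for none of the 4 genes given by ID at 6 h under the alternatives that could be fitted. All members passed the count filter at this depth, and the number of animals limits the precision of every comparison.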
